A study of Rattus norvegicus with 10 samples.

Results

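Transcripts of voltage-gated calcium channel subunits were examined in hippocampal tissue of rats with epilepsy after amygdala stimulation. The set was defined by name and held 10 rat genes, 8 for pore-forming alpha1 subunits (Cacna1a, Cacna1b, Cacna1c, Cacna1d, Cacna1e, Cacna1g, Cacna1h and Cacna1i) and 2 for the auxiliary alpha2delta subunits (Cacna2d1 and Cacna2d2), which form no pore although they are called alpha subunits. A row of the count table could be matched to 9 of the 10 genes among 32041 features, and Cacna1d was not analysed here. All 9 passed the filter on low counts, and where a gene had several rows the one with the highest mean count was taken.

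The tissue was a piece of the left hippocampus with the CA3 field and the dentate gyrus, taken from 10 adult male Sprague-Dawley rats, an outbred strain, with 1 library per rat. All 10 rats carried an electrode in the left lateral amygdala and had recovered from surgery for 2 weeks. Rats 1 to 5 (sham) were never stimulated, whereas rats 6 to 10 (stimulated) received pulses of 400 µA at 60 Hz for 30 min, with 10 min more where status epilepticus did not begin, and then diazepam at 20 mg/kg to end it. Tissue was collected 3 months later. The stimulated rats were also monitored by video EEG for the last 2 weeks before the end, which is not stated for sham rats. The stimulated group therefore carries the effects of the current, of status epilepticus, of diazepam and of the spontaneous seizures that followed. These effects and any of the monitoring cannot be told apart. The number of stimulated rats in the methods is smaller than in the labels, with no word on which was left out, and all 10 labelled rats were used.

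Voltage-gated calcium channels open when the membrane is depolarised and let calcium into neurons, where it triggers transmitter release, shapes firing and reaches the nucleus as a signal to genes. The alpha1 subunit determines the current. Cacna1a encodes the P/Q-type, Cacna1b the N-type and Cacna1e the R-type channel, Cacna1c and Cacna1d encode L-type channels, and Cacna1g, Cacna1h and Cacna1i encode the low-threshold T-type channels that support burst firing. Alpha2delta subunits bring high-voltage-activated channels to the membrane, and those made from Cacna2d1 and Cacna2d2 are the binding sites of gabapentin and pregabalin, drugs used against seizures and neuropathic pain. Mutations of Cacna1a and Cacna2d2 cause absence epilepsy in mice.

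Aligned counts per library lay between 13552309 and 24086059, both in sham rats. Reads entered as unaligned made up from 32.01% to 45.14% of aligned and unaligned counts together. Stimulated rats 8, 9 and 10 (41.4%, 42.93% and 45.14%) were above all sham rats (up to 37.09%). This is a share of counts and may differ from the share of reads. Ribosomal RNA records took from 1.817% to 12.22% of aligned counts. The tissue label was checked against marker genes. Summed levels of 6 general neuronal genes overlapped, at 2898 to 3190 CPM in the sham group and 2891 to 3227 CPM in the stimulated group (CPM, aligned reads of a feature per 1000000 aligned reads, after trimmed-mean scaling). The CA3 gene Grik4 and the granule cell genes Prox1 and C1ql2 were counted in each rat, while Tdo2, another granule cell marker, had a mean count of only 0.1. In bulk tissue, fewer cells of a type and less RNA per cell cannot be told apart.

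It was asked whether transcripts of these subunits differed between stimulated and sham rats. None of the 9 genes passed an adjusted p-value of 0.05 in edgeR's quasi-likelihood test, where 0% of the 22447 tested features passed, and the adjusted p-values of the 9 genes ran from 0.445 to 0.907. DESeq2 and edgeR's likelihood ratio test, which called 33 and 119 features in all, called 0 of the 9 as well. The paper's supplement lists many transcripts of this model, Fos among them, at an adjusted p-value under 0.05 in the authors' edgeR test. The 0% therefore belongs to the test and rats used here and does not mean that no transcript differs. At an unadjusted p-value under 0.05 there were 2 of 9 genes, Cacna2d1 on the higher and Cacna2d2 on the lower side, beside 9.86% of all tested features (6.7% higher and 3.16% lower). Fitted log2 fold changes were above 0 for 3 genes and below 0 for 6, with a median of -0.06 beside 0.01 over all tested features. The levels of stimulated and sham rats overlapped for each of the 9 genes, as they did for all but 1.29% of tested features.

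The count of 2 genes changed when single rats were left out, and so did the count over all tested features. It was 0 without sham rat 2, stimulated rat 7 or stimulated rat 10, 1 without sham rat 1, 3, 4 or 5 or stimulated rat 9, and 3 without stimulated rat 6, when Cacna1g joined. Without stimulated rat 8 it was again 2, with Cacna1g in place of Cacna2d2. Without stimulated rat 6 the groups no longer overlapped for 1 gene, Cacna2d2, and the share over all features was not computed for this omission. Over all tested features the count was 2214 with all rats. It was 1785 without sham rat 2, and 1656, 2063 and 3145 without stimulated rats 7, 10 and 6. Cacna2d1 and Cacna2d2 kept the sign of their log2 fold changes in each omission, with edgeR unadjusted p-values up to 0.085.

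**Figure D1:**
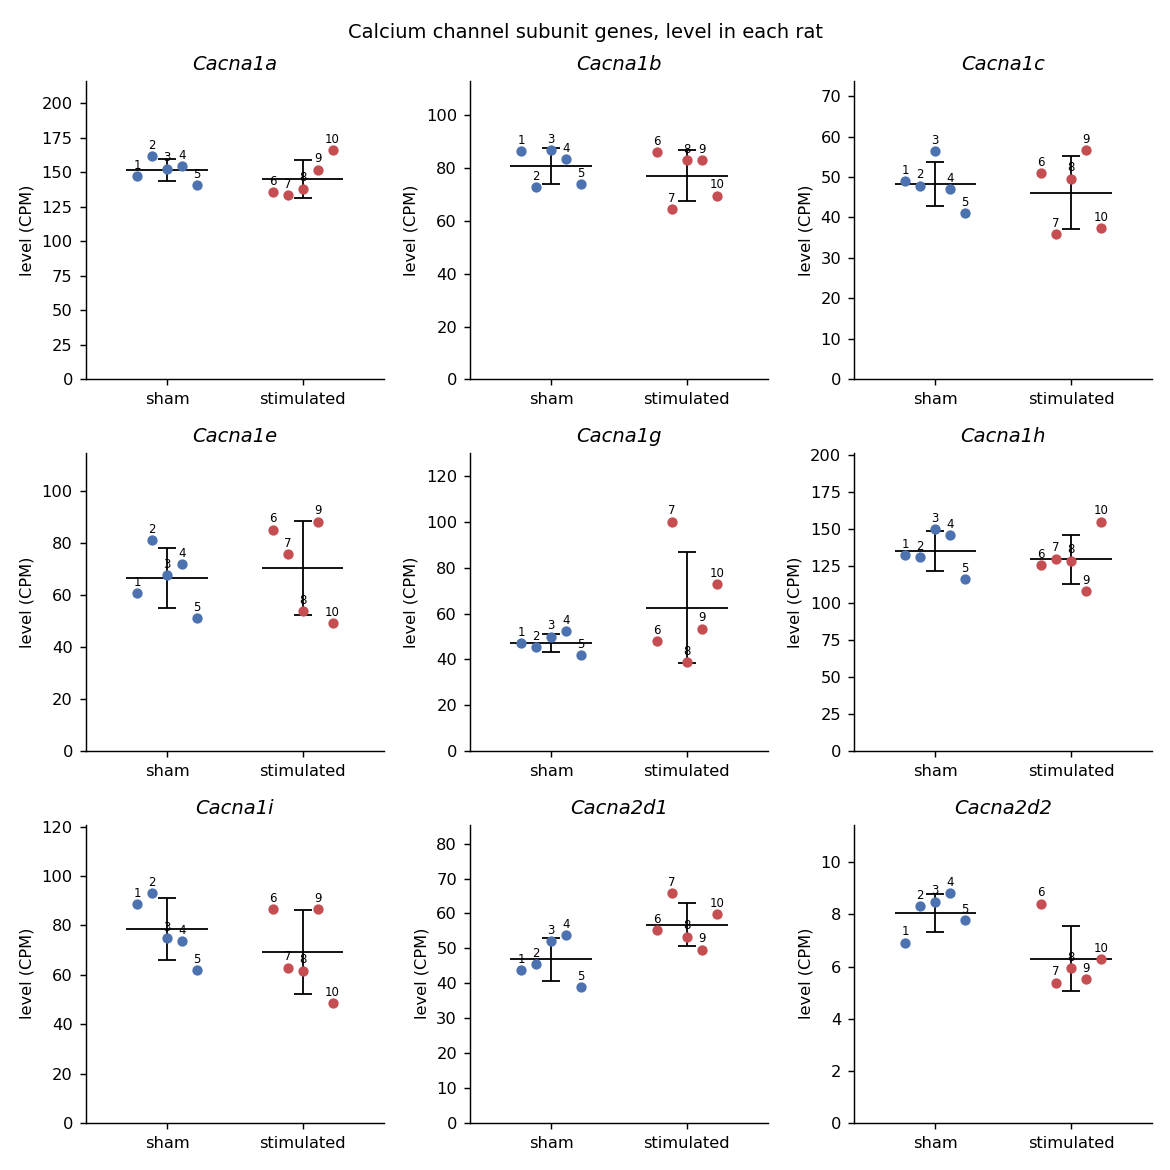
Level of each of the 9 genes (CPM, vertical axis from 0) in 5 sham rats (blue, rats 1 to 5) and 5 stimulated rats (red, rats 6 to 10), with the rat number at each point and bars for the mean and SD of a group. The groups overlap in each panel, and Cacna1g stands out by stimulated rats 7 and 10 at 100.1 and 72.9 CPM.

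The high-voltage-activated alpha1 subunits came first. Cacna1a (NM_012918), whose P/Q-type channel drives fast transmitter release, was counted at 147, 162, 153, 154 and 140 CPM in sham rats 1 to 5 and at 135, 133, 138, 152 and 166 CPM in stimulated rats 6 to 10. Stimulated rats 6, 7 and 8 lay below all sham rats and rat 10 above all of them. The sham mean was 151.3 ± 8.02 CPM and the stimulated mean 144.9 ± 13.9 CPM (SD, n = 5 each), a log2 fold change of -0.06 (SE 0.083, edgeR adjusted p = 0.842). The 95% interval of the fold change, 0.847 to 1.08, was the narrowest of the 9 genes on the log2 scale.

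Cacna1b (NM_147141), the N-type channel of presynaptic terminals, was at 86.4, 72.9, 86.9, 83.3 and 73.9 CPM in sham rats 1 to 5. The stimulated rats 6 to 10 had 86.2, 64.4, 83.05, 82.96 and 69.6 CPM, so that rats 7 and 10 were below all sham rats and the other three within their range. Its log2 fold change was -0.06 (SE 0.102, edgeR adjusted p = 0.872), with a 95% interval of the fold change of 0.823 to 1.11. A second row of the gene, NM_001195199, with a mean of 627.2 counts, had a log2 fold change of -0.12 (SE 0.119).

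Cacna1c (NM_012517), the L-type channel that couples activity to transcription, had 48.96, 47.8, 56.5, 46.99 and 41.02 CPM in sham rats 1 to 5 and 51.02, 35.9, 49.6, 56.7 and 37.4 CPM in stimulated rats 6 to 10. Again stimulated rats 7 and 10 were the lowest of the 10, and the remaining stimulated rats were at or just above the upper sham levels. The sham mean of 48.3 ± 5.53 CPM stood against a stimulated mean of 46.1 ± 9.07 CPM (SD, n = 5 each), and the log2 fold change was -0.07 (SE 0.135, edgeR adjusted p = 0.907). Without stimulated rat 7 or rat 10 the log2 fold change was just above 0, at 0.0022 and 0.0015.

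Cacna1e (NM_019294) encodes the R-type channel, found on dendrites and at mossy fibre terminals. Sham rats 1 to 5 had 60.7, 81.2, 67.7, 72.03 and 51.2 CPM and stimulated rats 6 to 10 had 85.1, 75.6, 53.7, 88.2 and 49.3 CPM. Stimulated rats 6 and 9 were above all sham rats and rat 10 below all of them, with rats 7 and 8 within the sham range. The log2 fold change of 0.08 (SE 0.170, edgeR adjusted p = 0.906) was below 0 when sham rat 5, stimulated rat 6 or stimulated rat 9 was left out, at -0.0088, -0.0080 and -0.011.

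None of the 3 T-type genes had an unadjusted p-value under 0.05. Cacna1g (NM_031601) had the highest log2 fold change of the 9 genes and the widest spread among stimulated rats. Its level was 46.99, 45.4, 50.001, 52.2 and 41.9 CPM in sham rats 1 to 5. In stimulated rats 6 to 10 it was 47.9, 100.1, 38.9, 53.4 and 72.9 CPM. Rats 7 and 10 were well above the sham range and rat 9 just above it, while rat 6 was within and rat 8 below it. The sham mean was 47.3 ± 4.004 CPM and the stimulated mean 62.7 ± 24.4 CPM (SD, n = 5 each). The log2 fold change was 0.41 (SE 0.204), with a 95% interval of the fold change of 0.978 to 1.80, an unadjusted p-value of 0.067 and an adjusted p-value of 0.534 in edgeR's test. Without stimulated rat 7 the log2 fold change was 0.16 (edgeR unadjusted p = 0.295), and without rat 8, the lowest, it was 0.52 (edgeR unadjusted p = 0.0125).

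Rats 7 and 10 also differed from the others in some markers of other cells, and rat 9 differed in some as well. The astrocyte gene Gfap was at 6467 and 5394 CPM in rats 7 and 10, against 1326 to 2078 CPM in the other 8 rats. Of 7 astrocyte markers 4 were higher at an unadjusted p-value under 0.05, beside 6.7% of all tested features, and 0 were absent. Their summed level lay between 3449 and 3922 CPM in the sham group and between 3518 and 8795 CPM in the stimulated group. Without Gfap the sum was 2328 and 2249 CPM in rats 7 and 10, against 1952 to 2313 CPM in the sham group. It was highest in rat 9, at 2630 CPM. Aldh1l1, another astrocyte gene, was lowest in rats 7 and 10, at 16.4 and 29.2 CPM. Summed dentate granule cell markers were highest in rat 9, at 355.3 CPM, where sham rats had 243.2 to 297.7 CPM. They were lowest in rats 7 and 10, at 158.7 and 202.3 CPM. A different gene was low in each, C1ql2 at 44.8 CPM in rat 7 and Calb1 at 38.2 CPM in rat 10, and in both rats the other 2 markers were within the sham range. Of 6 endothelial markers 4 were higher at an unadjusted p-value under 0.05, beside the same 6.7% of all tested features. The sum of the 6 was 275.5 CPM in rat 10 and 127.4 to 161.9 CPM in the other 9 rats. Summed CA1 markers were 52.3 CPM in rat 10 and 119.03 to 226.8 CPM in the others. Summed CA3 markers were 473.1 CPM in rat 10 and 311.1 to 435.4 CPM in the others, with rat 7 at 351.3 CPM. The oligodendrocyte sum was 2044 CPM in rat 7 and 2531 to 3654 CPM in the others. The immediate early gene Fos was at 106.3, 50.3 and 61.7 CPM in rats 7, 9 and 10 and at 3.26 to 5.61 CPM in the other 7 rats. Cacna1g is also strongly expressed in thalamus, and 3 of the 5 listed thalamic markers could be matched to a row (Slc17a6, Prkcd and Lef1). They summed to 20.1, 20.4 and 22.4 CPM in rats 7, 9 and 10 and to 13.8 to 16.2 CPM in the others. The part of these differences in the level of Cacna1g was not tested.

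Cacna1h (NM_153814), a T-type channel of pyramidal cells, was at 132.4, 130.9, 150.2, 145.7 and 116.4 CPM in sham rats 1 to 5. In stimulated rats 6 to 10 it was at 125.6, 130.1, 128.7, 107.9 and 155.01 CPM. Here rat 7, the highest for Cacna1g, was within the sham range, rat 10 was the highest of all and rat 9 the lowest. The sham mean was 135.1 ± 13.4 CPM and the stimulated mean 129.5 ± 16.8 CPM (SD, n = 5 each), which gave a log2 fold change of -0.06 (SE 0.103, edgeR adjusted p = 0.88) and a 95% interval of the fold change of 0.822 to 1.12.

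Cacna1i (NM_020084), the T-type subunit with the slowest kinetics, had 88.7, 92.9, 74.8, 73.7 and 61.8 CPM in sham rats 1 to 5 and 86.7, 62.9, 61.7, 86.7 and 48.4 CPM in stimulated rats 6 to 10. Stimulated rats 6 and 9 were in the upper sham range, rats 7 and 8 were at the level of the lowest sham rat, and rat 10 was below all others. The log2 fold change was -0.18 (SE 0.161, edgeR adjusted p = 0.744) with a 95% interval of the fold change of 0.696 to 1.12.

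**Figure D2:**
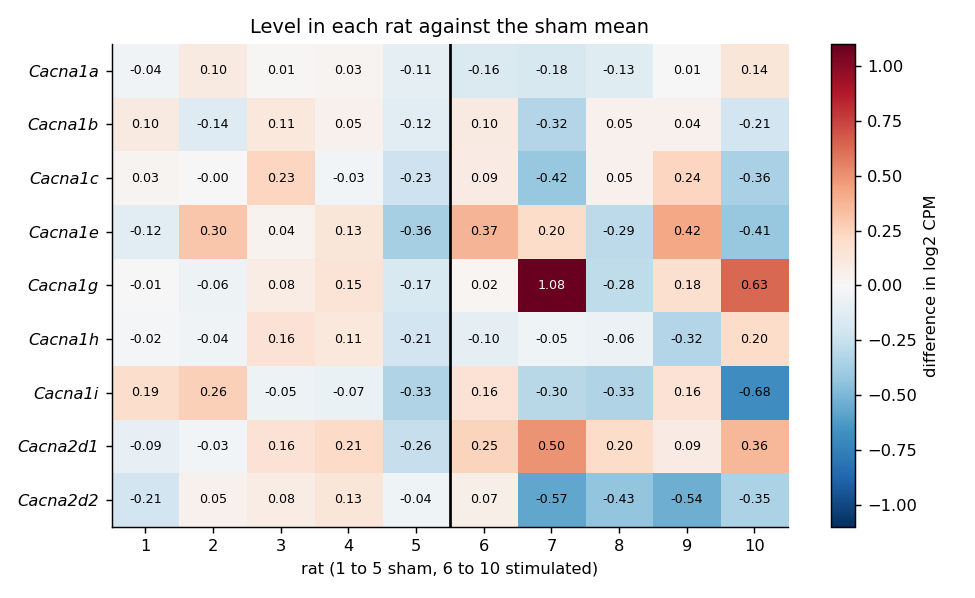
Level of each gene in each rat as the difference in log2 CPM from the mean of the 5 sham rats (red higher, blue lower, the value printed in each cell, and sham rats left of the line). Cacna1g is higher by 1.08 in rat 7 and by 0.63 in rat 10, while Cacna1b, Cacna1c and Cacna1i are below the sham mean in both rats.

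The alpha2delta genes were the members with the lowest p-values, and they lay on opposite sides. Cacna2d1 (NM_012919) was counted at 43.7, 45.6, 52.1, 53.9 and 38.9 CPM in sham rats 1 to 5. Its level was 55.2, 65.7, 53.4, 49.6 and 59.9 CPM in stimulated rats 6 to 10. Stimulated rats 6, 7 and 10 were above all sham rats, and rats 8 and 9 lay within the upper sham range. The sham mean was 46.8 ± 6.15 CPM and the stimulated mean 56.8 ± 6.23 CPM (SD, n = 5 each), a fold change of 1.21 with a 95% interval of 1.03 to 1.43. The log2 fold change of 0.28 (SE 0.111) had an unadjusted p-value of 0.026 and did not pass adjustment (edgeR adjusted p = 0.445). It stayed above 0 in all 20 alternatives, between 0.21 and 0.33. The other 2 rows of the gene, NM_001110848 and NM_001110847, gave 0.19 (SE 0.158) and 0.22 (SE 0.148) on the log2 scale, and with all its rows summed the value was 0.25 (edgeR unadjusted p = 0.0583). How the authors counted reads shared by such transcripts was not stated.

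Cacna2d2 (NM_175592) was the least counted member, with a mean of 140.8 counts. Sham rats 1 to 5 had 6.92, 8.32, 8.49, 8.80 and 7.79 CPM. Stimulated rats 6 to 10 had 8.41, 5.38, 5.94, 5.51 and 6.29 CPM. Stimulated rats 7, 8, 9 and 10 were below all sham rats, and rat 6 was among the higher sham values. The sham mean was 8.06 ± 0.737 CPM and the stimulated mean 6.31 ± 1.23 CPM (SD, n = 5 each), a fold change of 0.783 with a 95% interval of 0.623 to 0.984. The log2 fold change was -0.35 (SE 0.154) with an unadjusted p-value of 0.0378, which did not pass adjustment (edgeR adjusted p = 0.472). It was below 0 in all 20 alternatives, between -0.49 without stimulated rat 6 and -0.31 without stimulated rat 9.

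The balance of the pair within each rat was described as well, after the values of both genes had been seen. Such a ratio does not depend on the scaling of the library, but its level depends on the lengths of both transcripts, so that only differences between rats can be read. The log2 ratio of Cacna2d1 to Cacna2d2 in CPM was 2.66, 2.45, 2.62, 2.61 and 2.32 in sham rats 1 to 5 and 2.71, 3.61, 3.17, 3.17 and 3.25 in stimulated rats 6 to 10. The groups did not overlap, though stimulated rat 6 was just above sham rat 1. Among the 36 ratios that the 9 genes allow, the groups were apart for 2, this one and that of Cacna1h to Cacna2d1. How often ratios of other features set the groups apart was not computed, so these 2 have no background. No test was made because the ratios were chosen with the values known. The log2 ratio of Cacna1g to Cacna1i was 0.67 and 0.59 in stimulated rats 7 and 10 and between -1.03 and -0.50 in the other 8 rats, sham and stimulated alike.

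**Figure D3:**
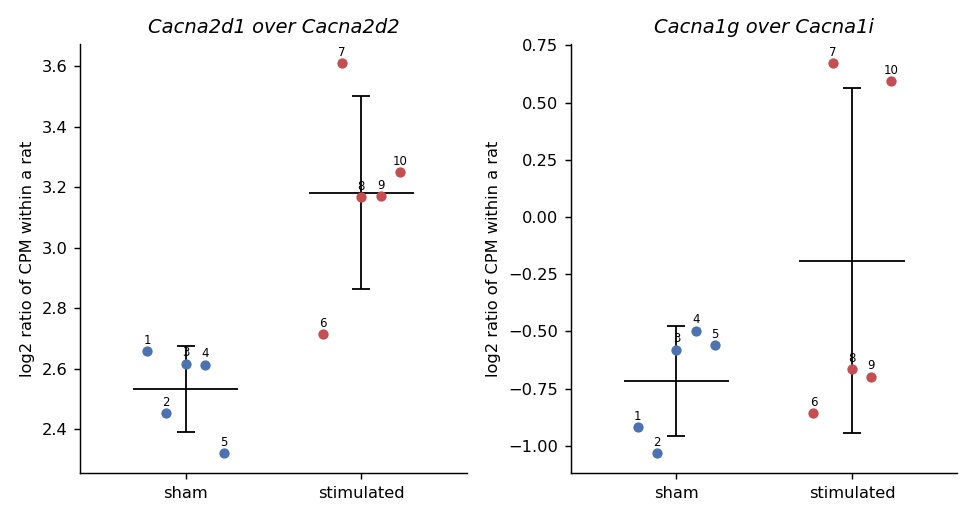
Log2 ratio of the CPM of 2 genes within each rat (points with rat numbers, bars for the mean and SD of the group, axes not from 0). For Cacna2d1 over Cacna2d2 all 5 stimulated rats lie above all 5 sham rats, with rat 6 at 2.71 against 2.66 in rat 1. For Cacna1g over Cacna1i rats 7 and 10 lie apart from the other 8, at 0.67 and 0.59. The ratios were chosen with the values known.

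Upstream sequence was read for the members from the RefSeq promoter table of the GRCr8 assembly, which held 9 windows for 7 of the 10 genes. The 250 bases before the start that belongs to each window were read. Cacna1c and Cacna1e had 3 and 6 CpG dinucleotides there, near the median of 5 over 33469 windows. The windows of Cacna1a, Cacna1b, Cacna1d, Cacna2d1 and Cacna2d2 had 28 to 56. The motifs searched on both strands were GCGGGGGCG (bound by Egr factors), TGACGTCA (CRE), TGACTCA (AP-1) and GGGCGGG (Sp type, which can overlap the first). GCGGGGGCG was found in windows of Cacna1b and Cacna2d1 and in 2.45% of all windows. TGACGTCA and TGACTCA were in 0 of the 9 windows and in 1.59% and 4.05% of all windows. GGGCGGG was in 5 windows of Cacna1b, Cacna1d and Cacna2d1 and in 21% of all windows. Some windows of Cacna2d1 overlap and share their sites. These 5 windows had from 72% to 88.8% G and C, beside a median of 51.2% over all windows. The shares over all windows are therefore no like background for motifs rich in G and C. These matches describe the letters only.

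The stretches below are shown because Cacna2d1 had the lowest p-value of the 9 genes, and because GCGGGGGCG occurs as a close pair both there and in Cacna1b, whose level differed little between groups. All are on the minus strand of GRCr8. The first, chr4:20330288-20330397, is the far part of one Cacna2d1 window, the 110 bases that lie outside the gene's record in the RefSeq table. Its capitals are the Sp-type motif on the opposite strand. The second and the third hold the pairs of GCGGGGGCG, in capitals and in Cacna2d1 on the opposite strand, at chr4:20330175-20330204 and chr3:27944376-27944405. The Cacna2d1 pair lies inside that gene's record, as do the other Cacna2d1 windows.
Cacna2d1 upstream: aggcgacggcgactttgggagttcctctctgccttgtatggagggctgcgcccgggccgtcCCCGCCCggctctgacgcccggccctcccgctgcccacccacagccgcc
Cacna2d1 pair: ccctcCGCCCCCGCccCGCCCCCGCcctct
Cacna1b pair: ctccgGCGGGGGCGgccGCGGGGGCGgggt

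Levels differed more among stimulated than among sham rats for most members. The SD of log2 CPM was higher in stimulated rats for 8 of the 9 genes, the exception being Cacna2d1, with a median ratio of 1.53. This was close to features in general, where the ratio was above 1 for 73.3% of the 14342 features with a mean count of at least 100 and had a median of 1.46. The ratio for Cacna1g was 4.36, the SD being 0.123 among sham and 0.535 among stimulated rats, and the next highest was 1.90 for Cacna2d2. No rat was separated from its group beyond Dixon's critical value of 0.71 in any of the 18 groups of 5 values, and the nearest was stimulated rat 6 for Cacna2d2, whose gap took 0.700 of the range.

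For each member, the feature with a symbol and a mean count of at least 100 that followed it most closely over the 10 rats was sought among 9625 candidates. The correlations are descriptions, since they are the highest of many and the points share libraries. Vegfa, a growth factor for blood vessels, followed Cacna1g (Pearson r 0.974) and had itself a log2 fold change of 1.15. Polg, the mitochondrial DNA polymerase, followed Cacna2d1 (r 0.947) and the zinc finger gene Zfp763 followed Cacna2d2 (r 0.974). The nearest features of Cacna1a, Cacna1b, Cacna1c, Cacna1e, Cacna1h and Cacna1i were Plekhm2, Igsf3, Tmem132b, Luzp1, Cad and Fam234b, with r from 0.893 to 0.966.

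Other genes of calcium channels and calcium signalling were taken from a list of 49, of which 46 could be matched to a row and 43 passed the filter. The channel regulators Stac, Stac2 and Erc1 could not be matched and were not analysed here. The paper's supplement lists Stac2 as upregulated in this model. None of the 43 passed an adjusted p-value of 0.05, and 5 had an unadjusted p-value under 0.05, 4 higher and 1 lower, beside 9.86% of all tested features, with 15 fitted log2 fold changes above 0 and 28 below 0 and a median of -0.06. The 5 became 10 without stimulated rat 6 and 10 without stimulated rat 8, when the count over all features went from 2214 to 3145 and 3034. Of the remaining pore and alpha2delta genes 0 of 4 were among the 5. Cacna2d3, another alpha2delta gene, averaged 128.05 ± 13.2 CPM without and 117.4 ± 12.5 CPM with stimulation (SD, n = 5 each; log2 fold change -0.13, SE 0.0985). Cacna1f of the retina and Cacna1s of skeletal muscle had mean counts of 7 and 8.4 and could hardly be assessed.

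The beta subunits, which bind alpha1 inside the cell and aid its transport, had 0 of 4 genes at an unadjusted p-value under 0.05. Their log2 fold changes were 0.14 (SE 0.111) for Cacnb1, 0.02 (SE 0.111) for Cacnb2, -0.18 (SE 0.134) for Cacnb3 and -0.31 (SE 0.146, edgeR adjusted p = 0.513) for Cacnb4, the gene mutated in the epileptic lethargic mouse. Gamma subunits and the related TARP proteins, which mostly serve AMPA receptors, had 0 of 7. Of these Cacng8, Cacng2, Cacng3 and Cacng7 were the most counted, with log2 fold changes between -0.22 (Cacng7) and 0.03 (Cacng3).

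Among channel regulators 4 of 14 had an unadjusted p-value under 0.05, all higher in stimulated rats, beside 6.7% of all tested features, and 3 of them were members of the 4-gene RGK family, small GTP-binding proteins that inhibit high-voltage-activated calcium channels. Rem2 (NM_022685), the neuronal member, was at 17.9 to 22.7 CPM in sham rats and at 18.05, 57.3, 18.7, 32.9 and 51.1 CPM in stimulated rats 6 to 10. Rats 7, 9 and 10 were above all sham rats and rats 6 and 8 within their range, and rats 7, 9 and 10 were also the highest for Fos. Its log2 fold change was 0.84 (SE 0.280, edgeR adjusted p = 0.409). The paper's supplement lists Rem2 as upregulated in this model, at an adjusted p-value under 0.05 in the authors' edgeR test. Their methods name fewer stimulated rats and a negative binomial model with shrinkage, where the quasi-likelihood test was used here. Rem2 was called after adjustment in 0 of the 20 alternatives. The cause of this difference from the paper was not tested.

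Gem (NM_001106637) was at 1.20 to 3.31 CPM in sham rats and at 1.85, 23.2, 2.68, 3.67 and 7.12 CPM in stimulated rats 6 to 10, and rat 7 carried most of the difference. Its log2 fold change of 1.73 (SE 0.591, edgeR adjusted p = 0.409) became 0.71 without that rat. Rrad (NM_053338) was at 1.92 to 2.75 CPM in sham rats and at 2.04, 3.16, 3.19, 11.3 and 5.26 CPM in stimulated rats 6 to 10, where rat 9 was the highest. Its log2 fold change of 1.16 (SE 0.387, edgeR adjusted p = 0.409) became 0.61 without rat 9. The last member, Rem1, had a mean count of 19.8 and a log2 fold change of 0.06 (SE 0.337). Each of 9 immediate early genes was higher at an unadjusted p-value under 0.05, beside 6.7% of all tested features. Their summed levels were 131.8 to 171.9 CPM in sham rats and 183.3, 654.3, 127.8, 1621 and 651.6 CPM in stimulated rats 6 to 10. Their part in the levels of the RGK genes was not tested.

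**Figure D4:**
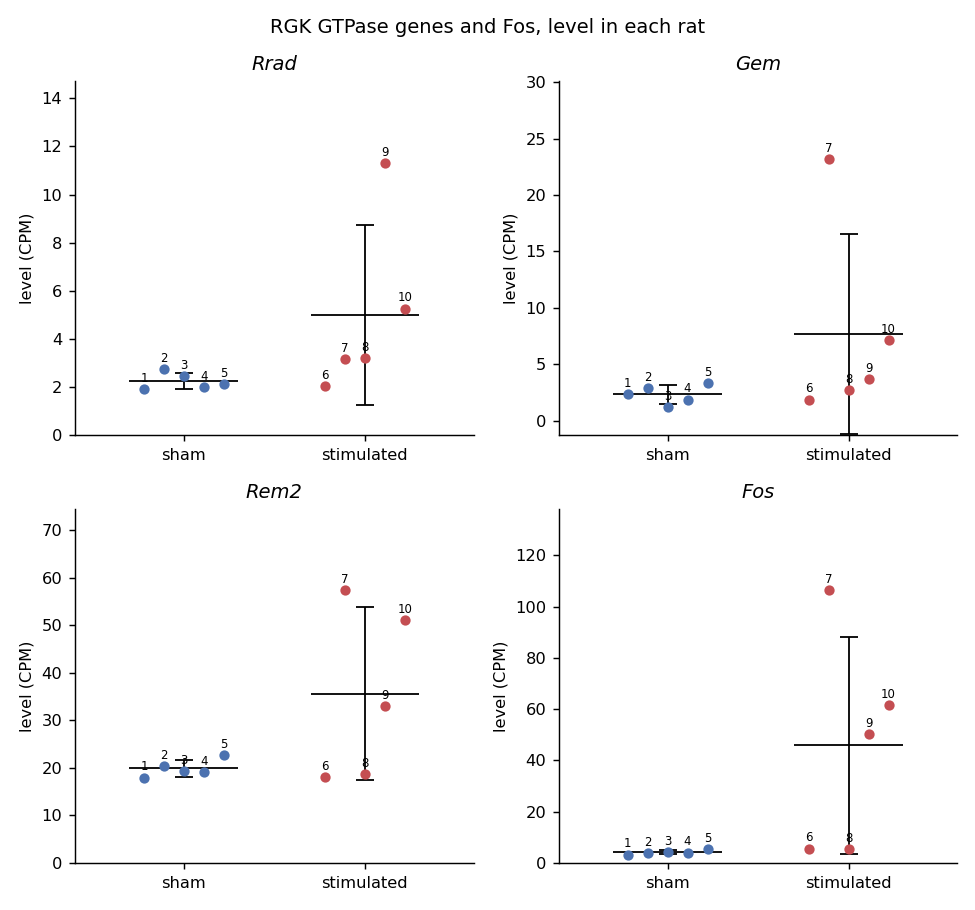
Levels (CPM, vertical axis) of 3 RGK genes and of Fos in each rat (points with rat numbers, blue sham, red stimulated, bars for the mean and SD). Rem2 and Fos are above all sham rats in stimulated rats 7, 9 and 10 and near the sham levels in rats 6 and 8, while Gem is highest in rat 7 at 23.2 CPM and Rrad in rat 9 at 11.3 CPM.

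The other regulator at an unadjusted p-value under 0.05 was Rimbp2 (NM_001100488), a presynaptic protein that tethers calcium channels to the release site. Its sham mean was 212.9 ± 15.3 CPM and its stimulated mean 282.8 ± 87.8 CPM (SD, n = 5 each), with rats 7 and 10 at 312.4 and 424.4 CPM, and its log2 fold change of 0.41 (SE 0.161, edgeR adjusted p = 0.432) became 0.22 without rat 10. Snap25 of the release machinery, among the most counted regulators, had a log2 fold change of -0.09 (SE 0.101).

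Of 14 calcium buffers and effectors only Crtc1 (NM_001047115), a calcium-regulated coactivator of CREB, had an unadjusted p-value under 0.05. Sham rats 1 to 5 had 97.9, 110.5, 100.3, 107.9 and 88.2 CPM and stimulated rats 6 to 10 had 93.0, 66.1, 92.3, 76.3 and 78.7 CPM. Stimulated rats 7, 9 and 10 were below all sham rats, and rats 6 and 8 were within their range. Its log2 fold change was -0.31 (SE 0.106, edgeR adjusted p = 0.409). Camk2a and Camk2b, the abundant calcium-dependent kinases of synapses, gave -0.16 (SE 0.0903) and -0.12 (SE 0.0784) as log2 fold changes, and Ppp3r1 and Ppp3ca of the phosphatase calcineurin gave -0.20 (SE 0.108) and -0.09 (SE 0.123). None of these 4 passed the test.

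**Figure D5:**
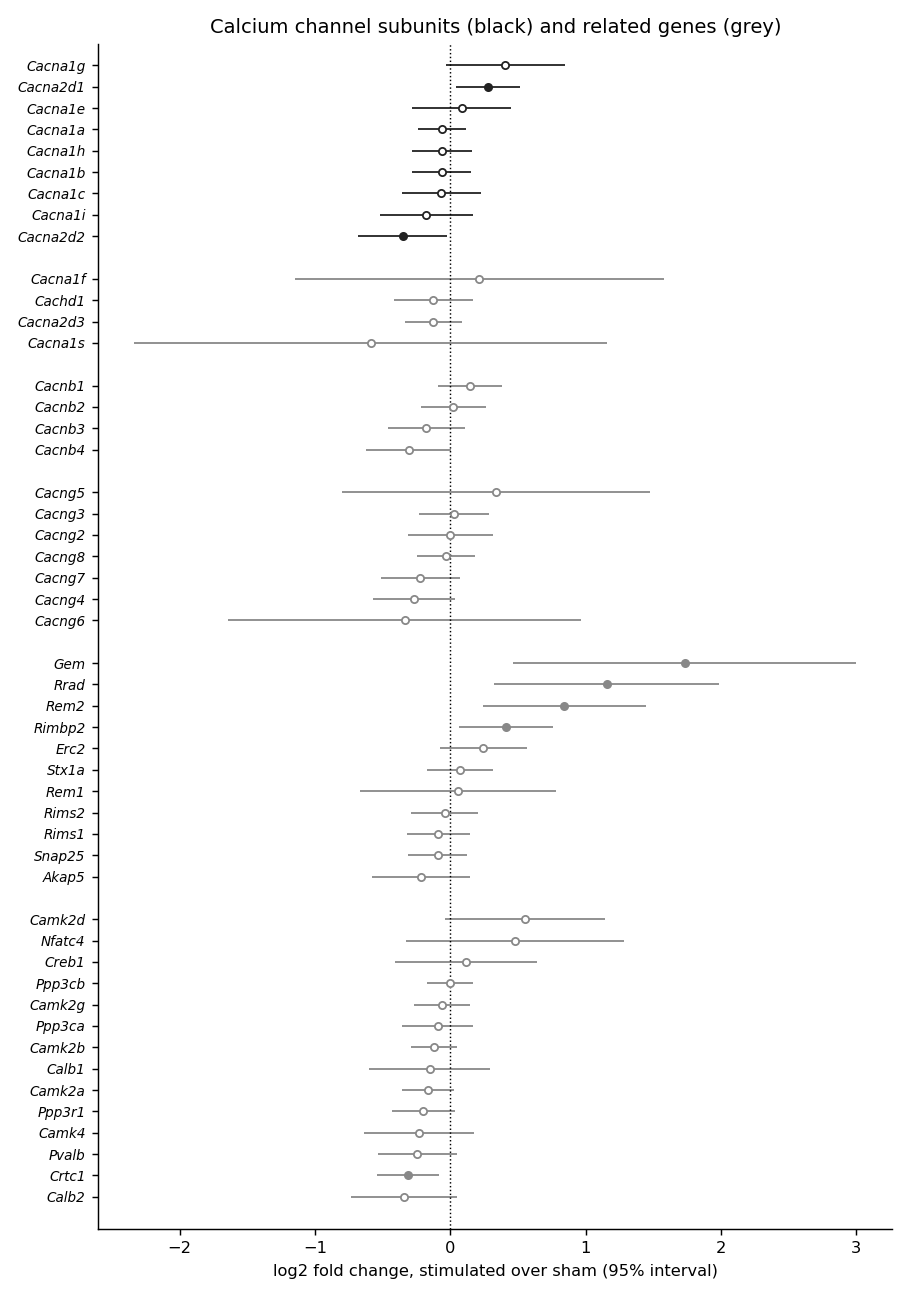
Log2 fold change of stimulated over sham rats (points) with its 95% interval (lines) from edgeR's quasi-likelihood fit for the 9 subunit genes (black, top) and 40 related genes in 5 lists (grey), with filled points for an unadjusted p-value under 0.05. Filled are Cacna2d1 and Cacna2d2 among the members and Gem, Rrad, Rem2, Rimbp2 and Crtc1 among the related genes, and none passed adjustment over all features.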

How the data were processed

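Polyadenylated RNA of 10 rats was sequenced as single reads of 36 cycles. The deposited values are raw counts of reads per transcript. Per the labels and the methods, alignment was by BWA against rn4, and the authors counted reads with a script of their own. The methods name an Ensembl annotation, while the rows carry RefSeq identifiers, and use of strand was not given in the sources used here. Symbols came from the RefSeq table of GRCr8, by identifier (17371 of 32041 rows). Genome positions came from its promoter table, and the end of the Cacna2d1 record from the RefSeq table.

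Features with a summed count below the 30th percentile (46 counts) were left out, as in the methods, and 22447 were tested. Groups were compared in edgeR 4.0.16 by its quasi-likelihood test (R 4.3.3, default settings, trimmed-mean normalization, no covariate), with Benjamini-Hochberg adjustment over all tested features. Adjusted p-values are from this test. The script was tested on simulated data. Log2 CPM used a prior count of 2. P-values measure the spread between rats, each 1 library. Members of the set had 93 to 3737 counts per rat, which sets their counting error. The members and gene lists were chosen with earlier results of these data known. All members are named, with related genes at an unadjusted p-value under 0.05 and up to 4 of the most counted of each list. Some genes that this rule names are not reported here. Alternatives were other normalizations, filters and tests (DESeq2 1.42.0, limma 3.58.1), summed rows, removal of ribosomal RNA records and omission of each rat. The labels give no batch.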

Additional observations from a re-analysis of the deposited data

How the results depend on the processing

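The 9 genes had 0 adjusted p-values under 0.05 in each of the 20 alternatives. The 2 genes at an unadjusted p-value under 0.05 became 1 with library size alone (Cacna2d2 lost) and 1 with the rows of a symbol summed (Cacna2d1 lost), and 0 to 3 when 1 rat was left out. Across the omissions the related genes at this threshold numbered 4 to 10, and the members with groups apart 0 to 1. The count over all tested features at this threshold ran from 1656 to 3145 across the omissions. Signs differed from the reported one for Cacna1e (log2 fold changes from -0.011 to 0.19) and Cacna1c (from -0.15 to 0.0022), each only where 1 rat was left out, and held for the other 7 genes. Rem2, Rrad and Crtc1 kept an unadjusted p-value under 0.05 in all 20 alternatives, Gem in 18 and Rimbp2 in 17. None of them was called after adjustment in these alternatives. The cause of these shifts was not tested. No paired analysis was possible because rats of the groups share no number in the labels. With 5 rats a group, the width of the 95% intervals limits what fold changes could be seen, and for Cacna2d2, with 93 to 213 counts per rat, counting error adds to the spread between rats.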
